A study of Mus musculus with 9 samples.

Results

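Among 38711 peaks of chromatin captured with probes against the long noncoding RNA Gm4665, 344 (0.889%) overlapped a peak of the LacZ control capture by at least 1 bp, and these shared peaks are described here. Seen from the control, 345 of 9448 LacZ peaks (3.65%) overlapped a Gm4665 peak. Peaks were chosen by the measured positions of both peak lists, so these counts describe the lists and carry no test. The germ cells came from testes of wild-type ICR mice, an outbred stock, at postnatal day 35. The 9 samples form 3 groups of 3: captured with Gm4665 probes, captured with LacZ probes, and uncaptured input chromatin. Sample titles call the captured RNA LncRNA-20, while the protocol names Gm4665, without stating that they are the same. Whether each replicate is its own set of animals is not stated, and SDs and p-values below measure the spread of these samples, which may be technical.

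Capture of this kind uses biotinylated oligonucleotides that anneal to an RNA in cross-linked chromatin, so that DNA held near the RNA is pulled down with it. LacZ is a bacterial gene absent from mice, and DNA retrieved with LacZ probes therefore marks what the beads, the probes and the sequencing return without the target RNA. A position found with both probe sets is one where the Gm4665 capture cannot be separated from that control by position alone. The deposited values are linear fold enrichments over input, 1 for each replicate of a list. How either list was scaled is not stated, so a Gm4665 fold and a LacZ fold at the same place are given side by side and their sizes are not compared. Read totals are not given in the files used here, so the depth behind each fold is unknown. The peak lists hold DNA only, so no marker check of the labelled cell type was made.

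Annotated promoter windows touched 6 of the 344 shared peaks (1.74%), against 1.30% of all Gm4665 peaks and 2.15% of all LacZ peaks. Of 32851 promoter windows in RefSeq (250 bases before to 50 after an annotated start, GRCm38.p6, the assembly of mm10), 6 touched a shared Gm4665 interval and none lay whole inside both intervals. The windows of Cst3 and Vkorc1l1 are printed because they were the 2 promoters of protein-coding genes with the most bases under both peaks, a choice made after the values were seen. Both run 5′ to 3′ on the gene's strand, and capitals mark the bases inside the Gm4665 and the LacZ interval alike.
Cst3, chr2:148875463-148875762, minus strand: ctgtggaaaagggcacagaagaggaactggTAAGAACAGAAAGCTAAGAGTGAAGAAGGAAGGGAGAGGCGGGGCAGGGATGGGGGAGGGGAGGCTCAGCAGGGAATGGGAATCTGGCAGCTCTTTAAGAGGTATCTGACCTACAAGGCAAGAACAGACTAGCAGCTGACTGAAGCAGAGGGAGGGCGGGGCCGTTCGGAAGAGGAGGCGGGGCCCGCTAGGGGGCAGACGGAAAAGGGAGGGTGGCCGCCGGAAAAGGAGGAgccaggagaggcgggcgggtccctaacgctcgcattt
Vkorc1l1, chr5:129941859-129942158, plus strand: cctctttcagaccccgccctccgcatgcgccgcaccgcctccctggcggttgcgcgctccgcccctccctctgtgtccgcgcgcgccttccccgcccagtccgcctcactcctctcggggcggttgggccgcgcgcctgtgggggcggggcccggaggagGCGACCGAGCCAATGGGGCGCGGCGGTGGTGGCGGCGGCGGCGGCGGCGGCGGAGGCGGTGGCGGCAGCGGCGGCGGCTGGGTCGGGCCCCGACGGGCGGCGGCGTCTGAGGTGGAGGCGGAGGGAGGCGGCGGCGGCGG
Shared bases numbered 233 at Cst3 and 140 at Vkorc1l1. GC content was 60.3% at Cst3 and 81.7% at Vkorc1l1, and the windows held 13 and 50 CpG dinucleotides. All 32851 windows had a median GC content of 52.7% and a median of 7 CpGs. The motif GGGCGG, read on both strands, lay in the shared bases of both. It was present in 2 of the 6 windows that touched a shared peak (33.3%) and in 35.7% of all windows. TATAAA, 6 CA repeats in a row and 6 GA repeats in a row were in 0 of the 6 windows, against 13.6%, 1.01% and 0.566% of all windows.

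Shared peaks had a lower median fold than the rest of their list in each of the 6 captured libraries, by small amounts in most. Median Gm4665 fold over the 344 peaks was 10.4, 8.28 and 9.53 in replicates 1, 2 and 3 (mean 9.40 ± 1.06, SD, n = 3). The other 38367 Gm4665 peaks had medians of 11.4, 8.50 and 10.3 (10.1 ± 1.45, SD, n = 3). At the same positions the median LacZ fold was 19.9, 7.81 and 10.89 (12.9 ± 6.27, SD, n = 3), and the other 9103 LacZ peaks had 23.02, 8.18 and 10.93 (14.04 ± 7.89, SD, n = 3). The gap was widest in LacZ replicate 1, and it was not tested, since the folds come from the contrasts that chose the peaks. Replicate 1 stood above the others in the LacZ list as a whole, and without it the LacZ median at shared peaks was 9.35. Single folds spanned 1.35 to 67.0 with Gm4665 probes and 1.46 to 120.7 with LacZ probes.

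Most shared peaks overlapped in part. The overlap had a median of 370 bp, with a range from 8 to 1607 bp, and covered a median of 64.8% of the Gm4665 peak and 52.4% of the LacZ peak. In 65 cases the Gm4665 peak lay whole inside the LacZ interval, and in 64 the LacZ interval lay whole inside the Gm4665 peak. Summits, the points of highest coverage, were a median of 269.5 bp apart, and 69 of the 344 pairs (20.1%) had summits within 50 bp. Shared Gm4665 peaks had a median width of 671 bp, beside 581 bp for the others. Their LacZ partners had 838.5 bp, beside 844 bp. A wider interval is more likely to meet another, so the width is in part set by the rule.

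Peaks just inside and just outside the threshold lay several base pairs from it. The shortest overlaps were 8 bp inside Plekhm3 on chromosome 1 and 8 bp inside Myt1l on chromosome 12, a zinc finger transcription factor gene of neurons. Next came 13 bp at an intergenic position on chromosome 1 and 17 bp inside Grik4, a kainate receptor subunit gene. Just outside, a Gm4665 peak on chromosome 5 ending at 109530169 missed a LacZ peak by 6 bp, with mean folds of 8.28 ± 1.11 and 42.5 ± 21.8 (SD, n = 3 each). A pair on chromosome 1 missed by 7 bp, with 13.9 ± 5.88 and 18.9 ± 16.7, and a peak in Lig1, a DNA ligase gene, missed by 15 bp, with 45.3 ± 6.54 and 20.6 ± 14.2 (SD, n = 3 each). Another, on chromosome 2, missed by 22 bp, with 14.1 ± 2.73 and 7.85 ± 2.14 (SD, n = 3 each). Altogether 26 Gm4665 peaks stopped less than 100 bp short of a LacZ peak.

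Some positions were strong with both probe sets. By mean fold, 39 of the 344 peaks (11.3%) were in the highest 10% of the Gm4665 list. In the highest 10% of the LacZ list were 28 (8.14%), and 3 (0.872%) were in both. By another measure, 3 exceeded 20-fold in each of the 6 captured libraries. One lay inside Iqgap1, which encodes a scaffold protein of the actin cytoskeleton, from 80765423 to 80766593 on chromosome 7. Its Gm4665 folds were 32.2, 24.7 and 31.5 (29.5 ± 4.15), and its LacZ folds were 50.3, 32.7 and 36.1 (39.7 ± 9.35; SD, n = 3 each). All 6 libraries were high there, and LacZ replicate 1 was the highest of them. An intergenic peak on chromosome 12, from 33840475 to 33841379, had 28.3, 20.7 and 29.2 with Gm4665 probes and 45.6, 20.5 and 22.5 with LacZ probes, with summits 15 bp apart. Inside Gm973, on chromosome 1 from 59591917 to 59592996, folds were 37.6, 29.6 and 33.3 with Gm4665 probes and 35.4, 20.1 and 25.4 with LacZ probes. At that gene and at Iqgap1 the Gm4665 replicates differed less, relative to their mean, than the LacZ replicates did.

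Further positions high in both lists included 3 intergenic peaks. The one on chromosome 17 beginning at 48759292 had mean folds of 29.1 ± 6.99 with Gm4665 probes and 28.5 ± 17.6 with LacZ probes (SD, n = 3 each). Chromosome 8 gave 20.9 ± 4.80 and 30.5 ± 15.9 at 42183025, and chromosome 19 gave 20.3 ± 3.18 and 23.9 ± 9.13 at 53596192 (SD, n = 3 each). Beside Cstb, the gene of the cysteine protease inhibitor cystatin B, a peak lay 898 bp outside the annotated gene. It had 21.3 ± 6.43 with Gm4665 probes and 26.7 ± 16.7 with LacZ probes (SD, n = 3 each), but the intervals overlapped by only 23 bp and their summits were 1009 bp apart. The lncRNA gene 1700123O12Rik had 48.5 ± 19.1 and 22.9 ± 13.2 (SD, n = 3 each).

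**Figure D1:**
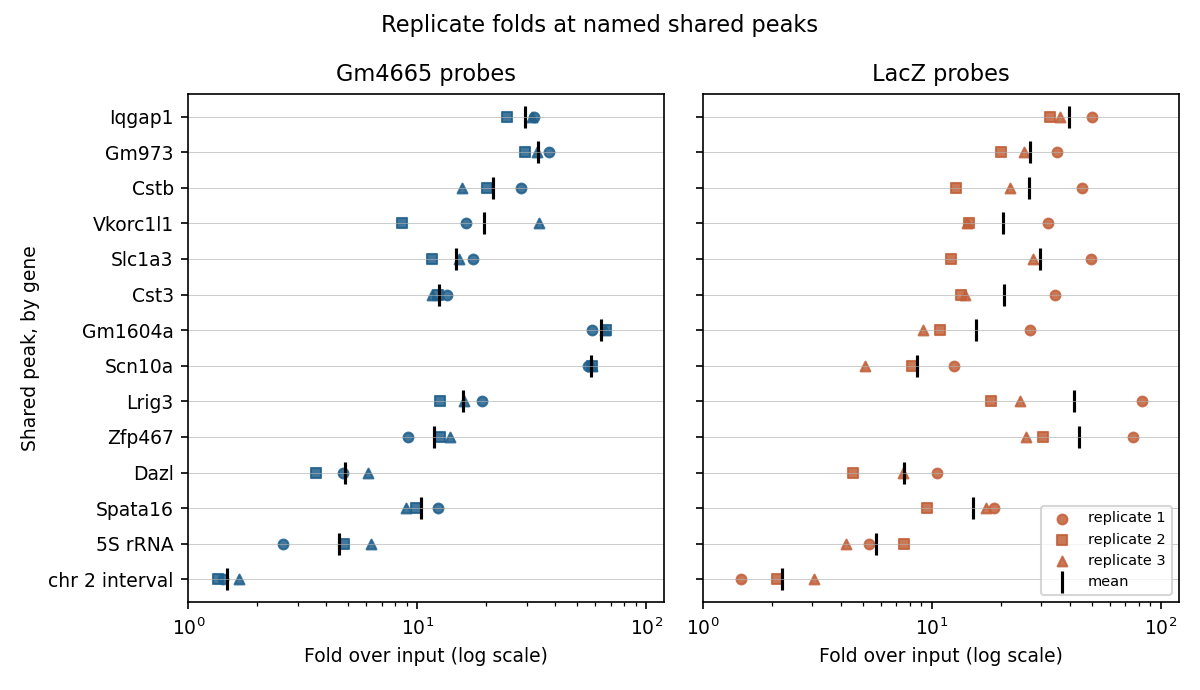
Fold over input (log axis) at 14 shared peaks, with Gm4665 probes on the left and LacZ probes on the right; symbols are the 3 replicates and black bars their mean. Iqgap1 lies high in both panels, Gm1604a and Scn10a are high on the left, and the chromosome 2 interval is below 4-fold in all 6 libraries.

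The strongest Gm4665 signals among shared peaks had modest LacZ partners. A peak in the lncRNA gene Gm1604a, on chromosome 17 from 8048932 to 8050859, had Gm4665 folds of 58.1, 67.0 and 65.8. Its LacZ folds were 26.9, 10.9 and 9.18, which ranked at the 58.7th percentile of the LacZ list. In Scn10a, which encodes a sodium channel of sensory neurons, Gm4665 folds were 55.8, 58.0 and 58.0 and LacZ folds were 12.5, 8.18 and 5.12. The Scn10a interval was 3276 bp wide, and the 697 bp LacZ peak lay whole inside it with its summit 1061 bp away. Intergenic peaks on chromosomes 6 (99806155 to 99807822) and 1 (65138619 to 65140430) had mean Gm4665 folds of 57.8 ± 5.85 and 54.1 ± 3.91, with LacZ folds of 12.3 ± 5.46 and 12.7 ± 7.32 (SD, n = 3 each). Beside the lncRNA gene Gm36656 on chromosome 7 the values were 52.5 ± 8.82 and 9.86 ± 2.64 (SD, n = 3 each). In each of these 5 cases the LacZ interval was the narrower and was contained in the Gm4665 peak.

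A further 4 peaks in the highest 10% of the Gm4665 list had LacZ partners near the bottom of theirs. Trf, the transferrin gene, had Gm4665 folds of 56.5, 39.5 and 30.9 and LacZ folds of 7.27, 6.23 and 6.34. Map7, which encodes a microtubule-associated protein, had 53.9, 35.4 and 44.8, beside 9.42, 8.64 and 8.14. The Map7 intervals overlapped by only 128 bp, with summits 915 bp apart. Timm44, a gene of mitochondrial protein import, had 37.6, 27.2 and 30.8, beside 12.1, 4.09 and 10.3. An intergenic peak on chromosome 11 beginning at 121766463 had 49.1 ± 18.8 and 7.38 ± 1.92 (SD, n = 3 each). At Trf and Map7 the 3 LacZ replicates lay close together, without the replicate 1 excess seen across that list. LacZ replicate 1 was 2.96 times replicate 2 at Timm44 and 1.71 times at the chromosome 11 peak. These peaks were chosen for low LacZ means, to which replicate 1 contributes most, so a small replicate 1 is favoured by the choice.

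The strongest LacZ peak among those shared had a weak Gm4665 partner. An intergenic interval on chromosome 2, from 22738521 to 22741048, had LacZ folds of 120.7, 60.0 and 83.6. The Gm4665 peak inside it, 811 bp wide with its summit 28 bp away, had 8.63, 6.44 and 5.76, at percentile 21.3 of its own list. The next strongest of the shared LacZ peaks overlapped, in most cases in part, Gm4665 peaks of middle to upper rank. Of these, 2 were in the major urinary protein region of chromosome 4. At the pseudogene Mup-ps8, Gm4665 folds were 11.7, 9.18 and 9.87 and LacZ folds were 83.1, 27.3 and 38.6, and the Gm4665 peak was at percentile 51.8. Beside the lncRNA gene Gm21286, they were 12.4, 13.2 and 8.89 with Gm4665 probes and 63.7, 22.9 and 36.0 with LacZ probes, and the Gm4665 percentile was 58.7. The overlap was only 49 bp at Mup-ps8, with summits 708 bp apart. Beside Gm21286 it was 505 bp, with summits 733 bp apart. The Gm4665 intervals at these 2 loci lie 79431 bp apart. As background, the region holds a family of near-identical gene copies where reads can be hard to place. The part of read placement in these folds was not tested.

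Zfp467, a zinc finger gene, had Gm4665 folds of 9.11, 12.6 and 13.9 and LacZ folds of 76.0, 30.6 and 25.7, at Gm4665 percentile 60.5. The intervals there overlapped by 281 bp, with summits 1096 bp apart. Lrig3, a leucine-rich repeat membrane protein gene, had 19.1, 12.6 and 16.0, beside 83.1, 18.2 and 24.2, with summits 44 bp apart, at Gm4665 percentile 75.1. LacZ replicate 1 was by far the highest library at both genes. The weakest Gm4665 peaks under LacZ peaks of the highest 10% lay in Enox1 (4.90 ± 0.748, beside 36.6 ± 19.9) and in Ift140 (4.97 ± 1.56, beside 29.3 ± 14.5; SD, n = 3 each). Ift140 encodes a component of intraflagellar transport, the system that builds cilia. Intergenic peaks on chromosomes 15, 8 and 3 had Gm4665 means of 5.85, 5.93 and 6.25, beside LacZ means of 30.0, 37.7 and 28.1.

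**Figure D2:**
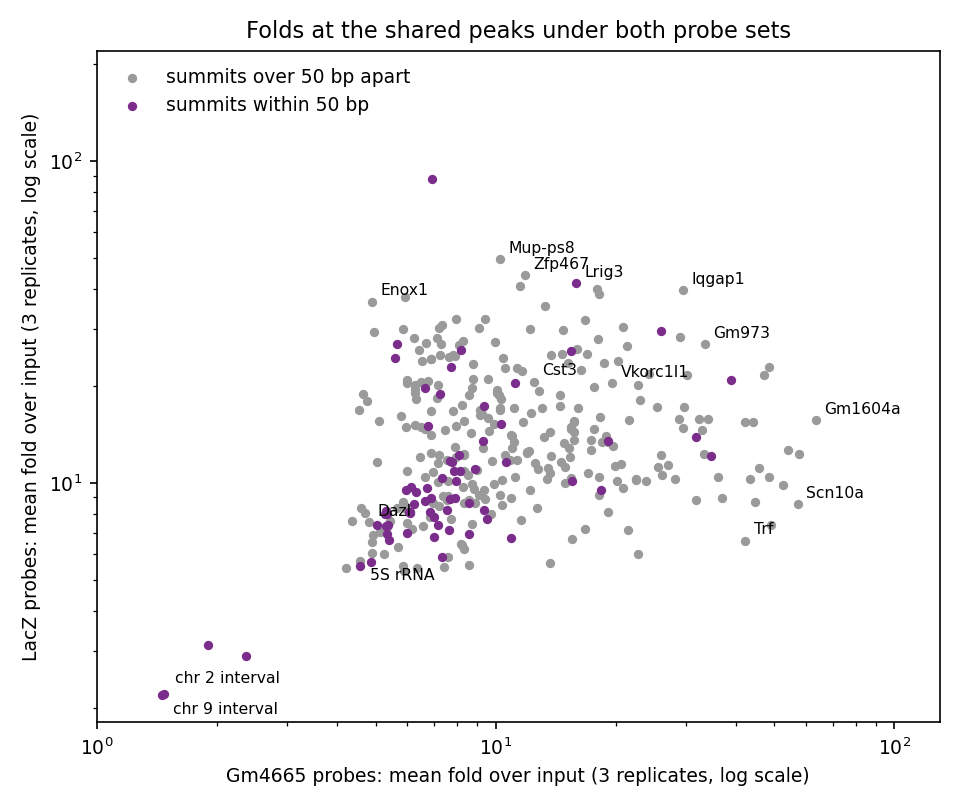
Mean fold over input at the 344 shared peaks, with Gm4665 probes on the x axis and LacZ probes on the y axis (both log); purple points have summits within 50 bp. The 4 lowest points stand apart at the lower left, and purple points gather at low folds of both lists.

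Across the 344 peaks the folds of the 2 probe sets were weakly related. Spearman's rho between mean Gm4665 and mean LacZ fold was 0.26, given as a description, since the points share input and libraries. With LacZ replicate 1 left out it was 0.063. The same rank correlation between replicates of one probe set was 0.80 to 0.81 for Gm4665 and 0.59 to 0.71 for LacZ. Between probe sets it was 0.27 to 0.31 against LacZ replicate 1, 0.12 to 0.17 against replicate 2 and -0.036 to 0.046 against replicate 3.

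Sharing was most frequent among the weakest LacZ peaks. Of the 945 LacZ peaks in the lowest 10% by mean fold, 76 (8.04%, 95% Wilson interval 6.47% to 9.95%) overlapped a Gm4665 peak. In the 9 stronger bins of the same size the share was 2.12% to 4.02%. With LacZ replicate 1 left out of the ranking, the lowest 10% gave 3.81%. The other bins above were ranked with all 3 replicates, so their range is not a like comparison for that value. In the Gm4665 list the lowest 10% had 1.24% shared (0.937% to 1.64%), beside 0.568% to 1.01% in the others. Intervals cover counting error only.

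**Figure D3:**
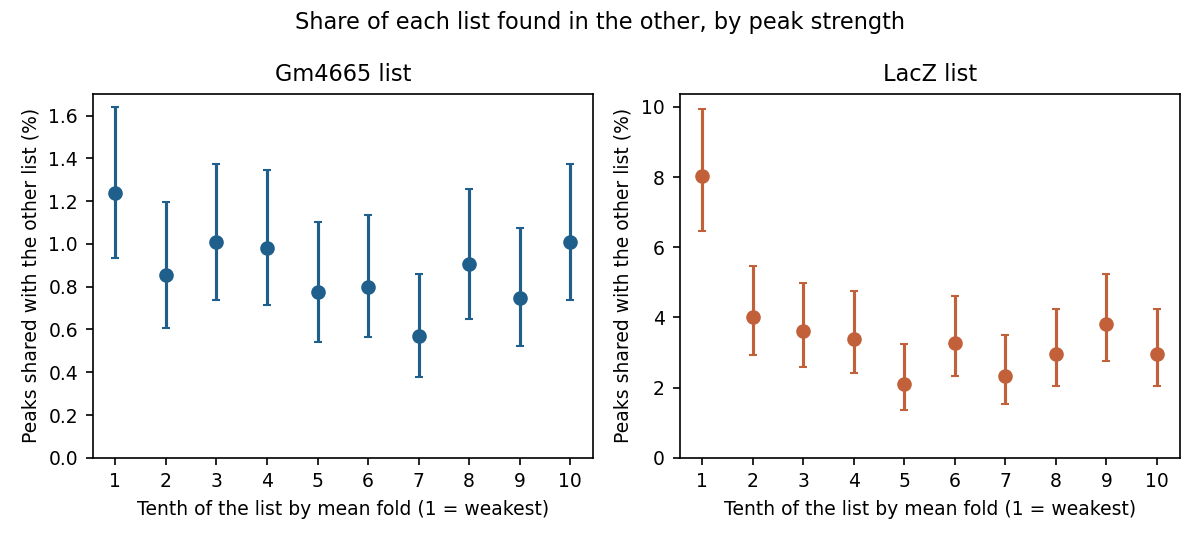
Share of Gm4665 peaks (left) and of LacZ peaks (right) that overlapped a peak of the other list, in bins of 10% of the list from weakest to strongest mean fold; bars are 95% Wilson intervals. The weakest 10% of the LacZ list stands at 8.04%, above the other 9.

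In 58 of the 344 shared peaks (16.9%), the fold was in the lowest 25% of both lists. They had a median Gm4665 fold of 5.58, 5.02 and 5.29 in the 3 replicates (5.30 ± 0.284), and a median LacZ fold of 6.25, 5.65 and 8.40 (6.77 ± 1.45; SD, n = 3 each). The 24 peaks in the highest 25% of both had 21.6 ± 1.43 and 25.3 ± 12.8 (SD, n = 3 each). Without LacZ replicate 1 in the ranking, 32 peaks were in the lowest 25% of both. The intervals of the 58 coincided closely. Their summits were a median of 50 bp apart, beside 346 bp in the other 286 shared peaks, and the overlap covered 69.9% of the wider interval, beside 36.6%. Intervals of the 58 were also narrower. Median widths were 550 bp (Gm4665) and 485.5 bp (LacZ), beside 686.5 and 902 bp in the other 286. The part of width in the summit distances was not tested.

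These weak coincident peaks differed from the rest of the LacZ list in how the replicates were balanced. LacZ replicate 1 was a median of 2.49 times replicate 2 at the other 286 shared peaks and 1.00 times at the 58. Part of that gap is set by the choice of low LacZ means, to which replicate 1 contributes most: within the lowest 25% of the LacZ list the median ratio was 1.52 in shared and 2.05 in other peaks. In the whole LacZ list, 152 peaks had a lower fold in replicate 1 than in replicate 2, and 45 of them (29.6%, 22.9% to 37.3%) overlapped a Gm4665 peak. Of the other 9296 LacZ peaks, 300 did (3.23%, 2.89% to 3.61%). Set against replicate 3, 69 of 346 LacZ peaks with a lower replicate 1 were shared (19.9%, 16.1% to 24.5%), beside 276 of 9102 others (3.03%, 2.70% to 3.40%). Within the lowest 25% of the LacZ list, replicate 1 was below replicate 2 in 42 of 133 shared peaks (31.6%) and in 91 of 2229 that were not shared (4.08%).

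Across the range of that ratio, sharing fell from bin to bin: 4.02% for a ratio of 1 to under 2, 3.40% for 2 to under 3 and 2.54% for 3 and over. The 42 Gm4665 peaks paired with a LacZ peak of ratio below 1 had median Gm4665 folds of 7.11, 5.02 and 5.35 and LacZ folds of 4.86, 6.89 and 9.89. Their summits were a median of 42 bp apart. The 85 with a ratio of 3 and over had Gm4665 folds of 13.3, 10.2 and 12.4, LacZ folds of 28.9, 7.27 and 11.5, and summits 394 bp apart. No test was made of these shares.

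**Figure D4:**
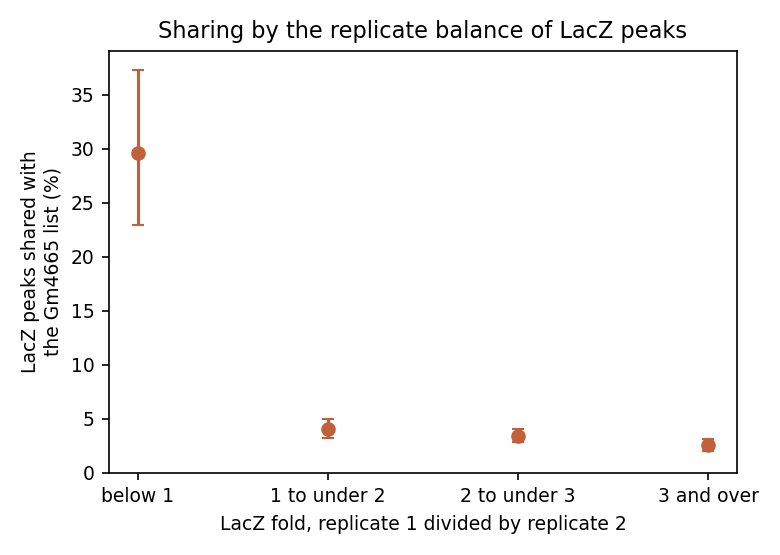
Share of LacZ peaks that overlapped a Gm4665 peak, by the ratio of the LacZ fold in replicate 1 to that in replicate 2; bars are 95% Wilson intervals. The share is 29.6% where the ratio is below 1 and 2.54% to 4.02% in the other bins.

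The lowest folds of all were at 4 positions, 3 of which were under 4-fold in each of the 6 libraries. They are named for their place in both lists, after their values were seen. On chromosome 9, from 3000324 to 3000608, Gm4665 folds were 1.40, 1.37 and 1.61 and LacZ folds were 1.495, 2.09 and 2.98. On chromosome 2, from 98666639 to 98667280, they were 1.42, 1.35 and 1.66 with Gm4665 probes and 1.46, 2.11 and 3.07 with LacZ probes. The chromosome 2 intervals coincided over 642 bp and their summits were 4 bp apart. In both lists and at both positions replicate 3 was the highest library.

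On chromosome 6, from 47752794 to 47753235, Gm4665 folds were 2.23, 1.82 and 3.03 and LacZ folds were 2.40, 3.14 and 3.11. In the lncRNA gene Gm33838 on chromosome 9, from 35305269 to 35305572, they were 1.75, 1.65 and 2.29 with Gm4665 probes and 1.99, 2.79 and 4.58 with LacZ probes. As background, assembled sequence at the start of mouse chromosome 9 adjoins the pericentromere, which is made of satellite repeats, and the chromosome 2 region is one that analyses of mouse sequencing data commonly exclude because reads of repeats collect there. No repeat annotation or exclusion list was used here, and the part of repeats in these folds was not tested. On chromosome 8, from 123620048 to 123620582, the Gm4665 interval of a shared peak covered the 5S ribosomal RNA gene Gm23284. The LacZ interval, from 123620435 to 123620740, lay outside that gene, and the summits were 352 bp apart. Gm4665 folds at this shared peak were 2.59, 4.81 and 6.30 and LacZ folds were 5.30, 7.57 and 4.23. It was 1 of 7 shared peaks in the lowest 1% of both lists, which also included peaks in 1700018B08Rik (4.23 ± 1.19 and 5.45 ± 0.922) and Slc36a2, an amino acid transporter gene (4.58 ± 0.632 and 5.50 ± 2.51; SD, n = 3 each).

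The best matched intervals were not all weak. Beside the chromosome 2 position, the largest shared parts were in Armc3, an armadillo repeat gene, on chromosome 2, in the lncRNA gene Gm34596 on chromosome 1, and at an intergenic position on chromosome 12. Armc3 had Gm4665 folds of 4.36, 4.90 and 5.89 and LacZ folds of 7.53, 3.75 and 10.8. Gm34596 had 25.9, 17.0 and 14.4, beside 22.2, 10.9 and 7.45, and its summits were 38 bp apart. The chromosome 12 position had 5.33 ± 1.38 and 6.94 ± 4.16 (SD, n = 3 each).

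Position relative to genes was read from peak midpoints. Those within 2 kb of a gene end numbered 61 of 344 (17.7%, 95% Wilson interval 14.1% to 22.1%), against 13.0% of all Gm4665 peaks and 16.0% of all LacZ peaks. The rest of a gene held 149 (43.3%, 38.2% to 48.6%), against 43.9% and 46.9%, and 134 (39.0%) were intergenic. Within 2 kb of an annotated start there were 21 (6.10%, 4.03% to 9.15%), against 1936 of all 38711 Gm4665 peaks and 5.77% of all LacZ peaks. Midpoints fell in a protein-coding gene in 44.8% of shared peaks, in a lncRNA gene in 8.72% and in a pseudogene in 2.03%, beside 43.2%, 9.39% and 1.10% of all Gm4665 peaks. Among all LacZ peaks these shares were 48.6%, 9.13% and 1.64%. Together, 186 shared peaks overlapped at least 1 gene and touched 217 genes, of which 176 were protein-coding and 31 were lncRNA genes. The same overlap over the whole lists is not given here, so these counts are a description only.

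**Figure D5:**
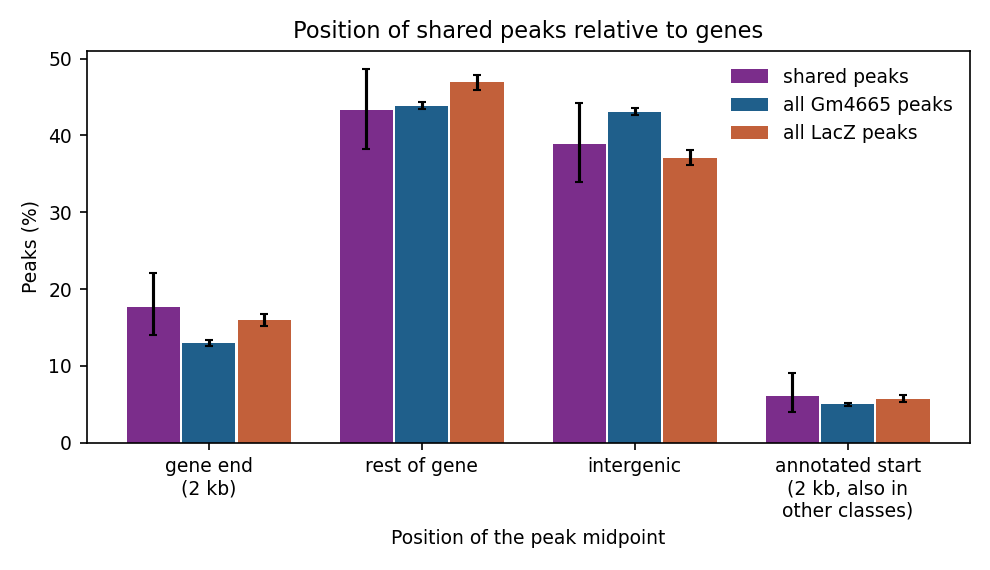
Percent of peaks with their midpoint at a gene end, in the rest of a gene, in intergenic sequence, or within 2 kb of an annotated start, for shared peaks, all Gm4665 peaks and all LacZ peaks; bars on each column are 95% Wilson intervals. Shared peaks stand at 17.7% at gene ends, beside 13.0% and 16.0%.

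How fold varied with position relative to genes was compared between probe sets over samples. The rule did not use gene positions, but it chose peaks by the captures that give these folds, so the comparison holds within the chosen peaks only. The median fold at gene ends divided by that elsewhere was 0.981, 0.951 and 1.04 in the Gm4665 replicates (0.992 ± 0.0472) and 1.12, 1.26 and 1.08 in the LacZ replicates (1.15 ± 0.0951; SD, n = 3 each). The difference, Gm4665 minus LacZ, was -0.161 with p = 0.1 by an exact permutation test, two-sided. Peaks in or at genes against intergenic peaks gave 0.978, 0.960 and 0.969 with Gm4665 probes (0.969 ± 0.00913) and 1.01, 1.08 and 1.02 with LacZ probes (1.04 ± 0.0393; SD, n = 3 each). That difference was -0.0675, also with p = 0.1 by the exact permutation test. Neither passed: 0.1 is the smallest p that 3 against 3 allows, and it stayed 0.1 when adjusted over these 2 tests. The groups did not overlap in either ratio under the 1 bp rule. With at least 50% of the Gm4665 peak covered, the differences were -0.046 (exact permutation p = 0.9) and 0.0406 (exact permutation p = 0.2), so the groups overlapped in both and the genic difference turned its sign. With gene ends of 1 kb, the gene-end difference was -0.392.

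At protein-coding genes, 31 shared peaks reached within 2 kb of a gene end with some part of the Gm4665 interval. By midpoint there were 27. The shares of the whole lists are not given here for these counts, so they are a description only. Vkorc1l1, which encodes a paralog of the vitamin K epoxide reductase, and Cst3, which encodes the secreted protease inhibitor cystatin C, had the Gm4665 peak over the annotated start itself. At Vkorc1l1, Gm4665 folds were 16.3, 8.57 and 34.0 and LacZ folds were 32.3, 14.6 and 14.3. The Gm4665 replicates there differed by more than they did at most genes named here. At Cst3, folds were 13.5, 12.3 and 11.6 with Gm4665 probes and 34.4, 13.4 and 13.9 with LacZ probes. These peaks met over the promoter bases printed above, with summits 390 and 661 bp apart.

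Other gene starts had shared peaks nearby. At Slc1a3, a glutamate transporter gene, the peak came within 1219 bp of an annotated start, with 14.8 ± 3.02 (Gm4665) and 29.8 ± 18.8 (LacZ; SD, n = 3 each). At Gpr37l1, an orphan receptor gene, it came within 1237 bp, with 17.3 ± 5.64 and 13.6 ± 6.23 (SD, n = 3 each). Gnb5, which encodes a G protein beta subunit and adjoins the myosin gene Myo5c, had a peak 1426 bp from its start with 11.3 ± 0.414 and 11.8 ± 7.33 (SD, n = 3 each). Metap1d, a mitochondrial methionine aminopeptidase gene, had 10.9 ± 2.20 and 14.0 ± 11.1, with 1596 bp to its start (SD, n = 3 each).

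The other named gene ends were farther from the annotated starts used here. Pus7, a pseudouridine synthase gene, had 21.6 ± 5.59 with Gm4665 probes and 15.7 ± 9.51 with LacZ probes, 36575 bp from the nearest annotated start (SD, n = 3 each). Pfkfb2, a regulator of glycolysis, with a peak 12391 bp from the nearest such start, had 11.3 ± 1.55 and 22.7 ± 8.88, and Gpd2, a mitochondrial glycerophosphate dehydrogenase gene, had 12.6 ± 2.68 and 11.5 ± 9.14 (SD, n = 3 each). Fbxl14, an F-box gene that lies inside Wnt5b, had 27.1 ± 6.71 and 11.4 ± 7.23 (SD, n = 3 each).

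Across 7 gene lists, mostly of the male germ line, 2 of 198 genes (1.01%) had a shared peak in the gene or its 2 kb flanks, against 0.877% of all 21779 protein-coding genes. These were Dazl and Spata16. By the same measure, any Gm4665 peak lay in 50.5% of the listed genes and in 39.3% of all protein-coding genes. Any LacZ peak lay in 18.7% and 16.9%. Dazl, which encodes an RNA-binding protein that germ cells require, is 1 of 20 spermatogonial genes, of which 8 had any Gm4665 peak and 4 any LacZ peak. Its shared peak began 306 bp from the annotated start, outside the gene, from 50293926 to 50295246 on chromosome 17. Gm4665 folds were 4.76, 3.62 and 6.09, at percentile 1.43 of the list, and LacZ folds were 10.5, 4.55 and 7.52. The 2 intervals overlapped over 1284 bp. Both sets of folds were low for their lists.

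Spata16, a gene of acrosome formation, is 1 of 42 spermiogenesis genes, of which 21 had any Gm4665 peak and 6 any LacZ peak. The shared peak lay deep inside the gene, 280732 bp from its start, with Gm4665 folds of 12.3, 9.88 and 8.89 and LacZ folds of 18.7, 9.55 and 17.3. In the lists for meiotic prophase (32 genes), the piRNA pathway (23), apoptosis (23), chromatin regulators (35) and somatic cells of the testis (25), no gene had a shared peak. Any Gm4665 peak lay in 11, 11, 13, 21 and 15 of these genes and any LacZ peak in 6, 7, 5, 8 and 1. Where a list gene had both kinds of peak, they therefore lay at different places in the gene, apart from Dazl and Spata16. Neither Gm4665, the lncRNA gene on chromosome 9 from 115178427 to 115186101, nor Osbpl10, whose span contains it, held a shared peak.

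In all, 6 genes held more than 1 shared peak. Lrmda, 1037 kb long, held 3: mean Gm4665 folds were 7.17 ± 0.918, 13.5 ± 4.74 and 43.4 ± 9.15, and the last 2 overlapped a single LacZ interval with 10.3 ± 4.59 (SD, n = 3 each). The first had 7.42 ± 1.43 with LacZ probes (SD, n = 3) and summits 10 bp apart. In Prrc2b, 2 Gm4665 peaks also met 1 LacZ interval from both sides, with 8.59 ± 2.13 and 14.5 ± 2.99, beside 18.8 ± 9.75 (SD, n = 3 each). Gnao1, which encodes a G protein alpha subunit, held peaks with 6.73 ± 2.15 and 6.28 ± 1.23, beside LacZ folds of 9.65 ± 5.84 and 19.5 ± 6.79 (SD, n = 3 each). Scn10a held a second with 9.17 ± 1.60 and 16.8 ± 9.74, and Gm1604a a second with 7.36 ± 0.507 and 5.88 ± 1.35 (SD, n = 3 each). The lncRNA gene A930011G23Rik held peaks with 5.86 ± 1.19 and 6.96 ± 2.39, beside 5.52 ± 2.00 and 8.63 ± 4.97 (SD, n = 3 each). Across the genome, 18 shared peaks lay within 100 kb of another.

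Shared peaks occurred on each autosome, from 7 on chromosome 19 to 28 on chromosome 1. As a share of Gm4665 peaks, the autosomes together had 0.912% (343 of 37617, 0.821% to 1.01%), with 0.600% on chromosome 12 the lowest and 1.33% on chromosome 8 the highest. On X, 1 of 899 Gm4665 peaks was shared (0.111%, 0.0196% to 0.627%), and X held 155 LacZ peaks. That peak, from 71645242 to 71645635, lay outside genes and had Gm4665 folds of 6.85, 9.58 and 5.21 and LacZ folds of 9.36, 8.93 and 18.3. On Y, 0 of 195 were shared, which allows a share of up to 1.54%, with 80 LacZ peaks listed there.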

How the data were processed

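Chromatin captured with Gm4665 or LacZ probes was analysed from 2 deposited peak lists, named for MACS2. Each row gives a position and, per the file headers, 3 linear fold ratios over input, 1 per replicate. Version, settings, aligner and how the authors joined replicates were not stated in the sources used; the submitters' processing notes name build mm10. Repeated rows (649 Gm4665, 165 LacZ) were joined with the highest fold kept, and only chromosomes 1 to 19, X and Y were kept. Coordinates are 1-based. Where a Gm4665 peak met several LacZ peaks, the one with the highest mean fold was taken. Percentiles are ranks of mean fold within a list. Genes (49603, after leaving out 340 that start below 3 Mb) and promoters came from RefSeq, GRCm38.p6.

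Scripts used Python 3.11.15, pandas 2.3.3 and scipy 1.17.1, and overlap and position code was tested on simulated intervals. Wilson intervals are at 95%. Ratios were compared between probe sets by exact permutation over samples, with the replicate number as a block as an alternative. The members, gene lists and named-peak rules were chosen with earlier results of these data known. Named peaks were the strongest in both lists or either, the most unequal, those at protein-coding gene ends, in listed genes or sharing a gene, and those nearest the overlap threshold; a named peak is not reported here. Alternatives changed the overlap, fold minimum, list length, gene windows and replicates. Same-numbered samples did not deviate together (r of -0.035, -0.026 and -0.0088 for numbers 1, 2 and 3), so the main comparison was unblocked.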

Additional observations from a re-analysis of the deposited data

Results flagged for a closer look

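Among shared peaks, the median fold in or at genes divided by that of intergenic peaks was below 1 in each of the 3 Gm4665 replicates. It was above 1 in each of the 3 LacZ replicates. The peaks were chosen by the captures that give these folds, so the comparison holds within the chosen peaks only. The difference, Gm4665 minus LacZ, was -0.0675, with p = 0.1 by an exact permutation test, two-sided, the smallest p that 3 against 3 allows. It turned to 0.0406 when at least 50% of the Gm4665 peak had to be covered.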

How the results depend on the processing

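The number of shared peaks followed the definition of overlap: 344 with 1 bp, 213 with at least 50% of the Gm4665 peak covered, 134 with 50% of each interval, 686 with gaps of up to 1 kb allowed, and 79 when the Gm4665 list was reduced to the length of the LacZ list. Under those first 2 alternatives and equal lengths, gene-end peaks numbered 39, 24 and 11 and peaks in the rest of a gene 91, 60 and 39, since fewer peaks remain. With 1 kb windows 38 were at gene ends, and with protein-coding genes alone 27, since less sequence counts. The median Gm4665 fold of 9.40 became 8.24 with 50% covered and 24.7 with equal lengths, where weak peaks are removed. Leaving out each replicate number in turn gave 8.90 to 9.96 for that median, 9.35 to 15.4 for the LacZ median, 0.069 to 0.29 for rho, 33 to 68 for peaks in the lowest 25% of both lists, and 3.81% to 10.2% for the weakest 10% of LacZ peaks. With LacZ replicate 1 alone left out, rho was 0.063 and the count in the lowest 25% of both 32. The gene-end and genic differences were -0.226 to -0.0876 and -0.0845 to -0.0403 without each replicate, and the genic one turned to 0.0406 with 50% covered; the cause was not tested. With the replicate number as a block the differences were -0.161 and -0.0675, each with exact p = 0.25, the smallest possible, and no call changed. Of 63 alternatives run, 40 kept direction and call or, for counts and untested values, stayed close; these include gene-end differences of -0.046 with 50% covered (exact p = 0.9) and -0.392 with 1 kb ends; the lowest 25%, summit, annotated start and weakest 10% results were added after seeing the data. Peak positions could not be called again without a replicate, and read depth, not given here, sets no limits.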

Other observations

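On sequences outside chromosomes 1 to 19, X and Y, the Gm4665 list held 116 intervals and the LacZ list 25. There, 5 Gm4665 intervals (4.31%) overlapped 5 LacZ intervals (20%).

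A further cluster of shared peaks lay on chromosome 16, where 2 neighbouring intergenic pairs began at 63460492 and 63461444. Their mean Gm4665 folds were 7.54 ± 1.83 and 6.32 ± 1.33, and their LacZ folds were 8.86 ± 5.49 and 9.35 ± 1.99 (SD, n = 3 each). On chromosome 6 a second intergenic shared peak, beginning at 99801788, lay 3119 bp from the one at 99806155, with 22.8 ± 7.24 and 20.1 ± 14.0 (SD, n = 3 each).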
